A study of Rattus norvegicus with 6 samples.

Results

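Immediate early transcription factors are measured here as 5 genes, Fos, Jun, Egr1, Atf3 and Myc, among 30452 genes listed for rat bone marrow mesenchymal stromal cells. The set was chosen by 6 gene identifiers, of which the one given for Junb was not analysed here. All 5 measured genes passed the filter on low counts, which kept 14715 genes. The cells are adherent marrow cells able to form bone, cartilage and fat. They are labelled as wild type (WT) in both groups and were taken from osteogenic differentiation cultures. Control cultures were left blank (n = 3), and the others were grown in co-culture with the AAT-ZCG hydrogel (n = 3). The series' title calls it an enzyme-linked hydrogel for regeneration of diabetic bone defects. Rat strain, animal age, gel dose, days of culture and the time of harvest are not given in the sources used here, nor is the origin of each library from its own culture or animal. The p-values therefore describe the spread among these 6 libraries, and that spread may be technical.

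Immediate early genes are transcribed quickly after a stimulus because the factors that switch them on are already present in the cell. Growth factors, adhesion, stretch and stress reach them through kinase cascades that act on serum response factor and its partners, which bind the CArG box, and on factors that bind cyclic AMP response elements. Their products are transcription factors in turn. Fos and Jun proteins pair into AP-1, Egr1 is a zinc finger factor, Atf3 is a stress-induced member of the ATF/CREB family that can pair with Jun proteins, and Myc pairs with Max to drive growth genes. In bone-forming cells, AP-1 and Egr1 are known to be induced by mechanical load, serum and parathyroid hormone, and many of these transcripts are short-lived.

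The RefSeq promoter table (build GRCr8) held an entry for 2 of the 6 listed genes, Egr1 and Junb. The 250 bases before the start of Egr1 are shown because Egr1 was the gene with the largest difference between the groups. They lie at chr18:26736828-26737077 on the plus strand. The capitals mark matches to the CArG box.

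Egr1 promoter: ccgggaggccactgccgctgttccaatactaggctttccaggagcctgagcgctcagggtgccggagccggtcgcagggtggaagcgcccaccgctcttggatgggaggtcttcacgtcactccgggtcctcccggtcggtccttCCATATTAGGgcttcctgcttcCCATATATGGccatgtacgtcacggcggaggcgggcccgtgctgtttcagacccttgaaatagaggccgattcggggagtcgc

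The 2 CArG boxes do not overlap and lie 105 to 96 and 83 to 74 bases before the start. Of 33469 rat promoter windows of the same length, 501 (1.50%) held at least 1 CArG box on either strand and 7 held 2 or more. The other motifs searched on both strands had no exact match in the Egr1 window. They were the cyclic AMP response element TGACGTCA (in 1.59% of windows), the AP-1 element TGACTCA (4.05%), the E-box CACGTG (5.59%), the Egr element GCGTGGGCG (0.478%) and the TATA box TATAAA (12.9%). These motifs were searched as the exact letters given, while the CArG pattern allowed A or T at its inner positions. Near or partial matches were not searched, so the search cannot show that such an element is absent from the window. A match describes the letters in this window, and binding was not measured.

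The identity of the rows was checked by the gene length implied by count, FPKM and library total. FPKM is a count scaled by gene length and by the library total. The implied length was 3114 bp for Egr1 (ENSRNOG00000019422), 1589 bp for Fos (ENSRNOG00000008015), 4512 bp for Jun (ENSRNOG00000026293), 1894 bp for Atf3 (ENSRNOG00000003745) and 2339 bp for Myc (ENSRNOG00000004500). Each length was the same in the 6 libraries, to within a relative range of 1.47e-10 at most. The counts and FPKM values of each gene therefore come from the same reads. A length does not name a gene, and the annotation behind these lengths was not used here. The files carry no gene names, so the symbols rest on the identifiers listed for the set. Markers of stromal, blood and bone cells were not checked, because they could not be matched to identifiers.

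Library totals ran from 30601703 to 93728651 counts, with the deepest library of each group being sample 2. The 5 genes were read deeply enough to compare in all libraries, from 169 counts of Atf3 in hydrogel 3 to 9457 counts of Egr1 in hydrogel 2. In bulk RNA, fewer cells of a type and less RNA per cell cannot be told apart. With hydrogel, 3 of the 5 genes were higher at an adjusted p under 0.05, while 34.5% of all tested genes were called in either direction, 17.5% higher and 17.1% lower (edgeR quasi-likelihood test, Benjamini-Hochberg over 14715 genes). Egr1 nearly doubled, Fos rose by less and Jun rose slightly. Atf3 and Myc were not called. By edgeR, 0 members were called lower, and at an unadjusted p under 0.05, 4 were higher and 0 lower, against 43.7% of all tested genes in either direction and 22.1% higher. DESeq2 likewise called 3 members higher and 0 lower, and over all genes 2491 higher and 2486 lower. It was run on all genes with any count, a wider set than the 14715, and no share was computed for it. At an adjusted p under 0.01, edgeR called 1 member, Egr1, and 23.6% of all tested genes. With a fold above 2 or below 0.5 as well as an adjusted p under 0.05, it called 0 members and 5.73% of all tested genes. The median log2 fold change was 0.19 over the 5 genes and 0.0021 over all tested genes. With 5 genes, the count of 3 is not read as a result about the set.

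**Figure D1:**
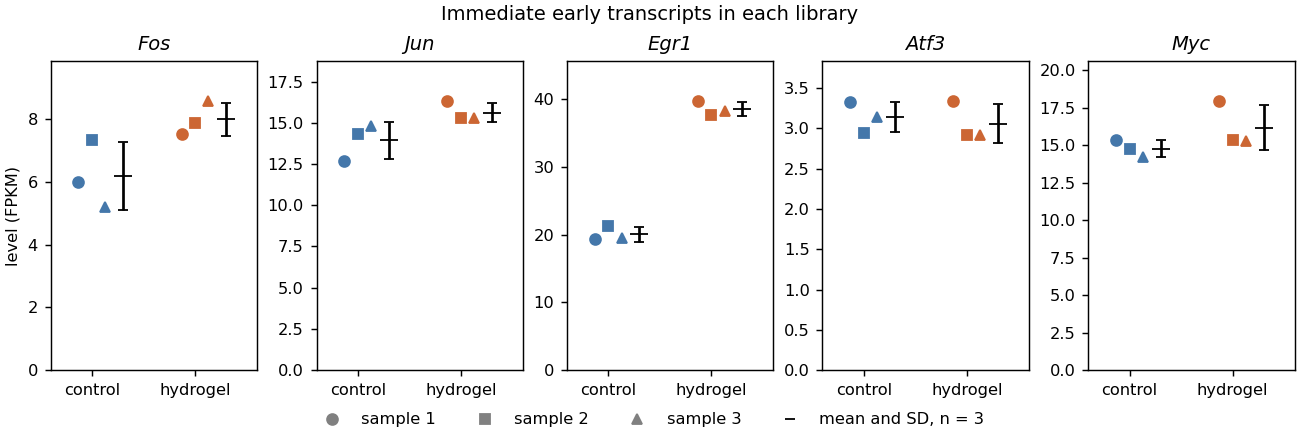
Level (FPKM, vertical axes starting at 0 and scaled separately) of each gene in the 3 control (blue) and 3 hydrogel (orange) libraries, with group mean and SD. Egr1 lies between 19.3 and 21.3 in controls and between 37.6 and 39.7 with hydrogel, while the groups meet for Atf3 and Myc.

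Egr1 is induced by serum, growth factors and mechanical load and regulates matrix and growth factor genes. It stood at 19.3, 21.3 and 19.5 FPKM in control 1, 2 and 3. With hydrogel it stood at 39.7, 37.6 and 38.2 FPKM. All hydrogel libraries lay far above all controls, and the spread within each group was small beside that gap. The mean moved from 20.0 ± 1.12 to 38.5 ± 1.04 FPKM (SD, n = 3). The log2 fold change was 0.96 (SE 0.054, 95% interval 0.85 to 1.08, edgeR adjusted p = 2.32e-09), or 1.95-fold with an interval of 1.80 to 2.11. The estimate lay just under the 2-fold limit that the series' design text sets for a changed gene, and the interval spans that limit. Among 2921 tested genes within 2-fold of its mean CPM (count scaled by the library total, with TMM factors, which correct for differences in RNA composition), 34 had an absolute log2 fold change at least as large, Egr1 included. The median absolute log2 fold change of those 2921 genes was 0.14, and 46.6% of them were called.

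Fos encodes the AP-1 subunit that cannot pair with itself and needs a Jun partner. Its levels were 6.02, 7.34 and 5.21 FPKM in control 1, 2 and 3 and 7.54, 7.89 and 8.58 FPKM in hydrogel 1, 2 and 3. The groups did not overlap, but control 2 lay close under hydrogel 1. The mean was 6.19 ± 1.08 FPKM in controls and 8.00 ± 0.53 FPKM with hydrogel (SD, n = 3). Fos rose by a log2 fold change of 0.38 (SE 0.12, 95% interval 0.12 to 0.65, edgeR adjusted p = 0.0248), or 1.30-fold. Of 3845 tested genes of similar CPM, 821 had an absolute log2 fold change at least as large, Fos included.

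The call of Fos depended on single libraries. It was lost without control 1 (edgeR adjusted p = 0.0815), without control 3 (0.123), without hydrogel 2 (0.0552) and without hydrogel 3 (0.0894). The log2 fold change stayed positive in these fits, from 0.28 without control 3 to 0.39 without hydrogel 2. It was 0.54 without control 2, the highest control (edgeR adjusted p = 0.00703). Limma on log2(FPKM + 1) gave 0.33 with an adjusted p of 0.0592.

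Jun encodes the partner of Fos in AP-1 and can also pair with itself. It stood at 12.7, 14.3 and 14.8 FPKM in control 1, 2 and 3 and at 16.3, 15.3 and 15.3 FPKM in hydrogel 1, 2 and 3. The groups did not overlap, and the gap between control 3 and hydrogel 3 was narrow. The mean was 13.9 ± 1.10 FPKM in controls and 15.6 ± 0.58 FPKM with hydrogel (SD, n = 3). The rise was 0.19 in log2 (SE 0.062, 95% interval 0.057 to 0.32, edgeR adjusted p = 0.0259), or 1.14-fold. Of 3561 tested genes of similar CPM, 1308 had an absolute log2 fold change at least as large, Jun included, so the size of its change was common.

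The call of Jun was lost without control 1, the lowest library, where the log2 fold change fell to 0.12 (edgeR adjusted p = 0.127). It was also lost without control 2 (0.0506) and without hydrogel 1 (0.0663). In samples 1 and 3 of each group alone, leaving out both deep libraries, the estimate was 0.22 with an edgeR adjusted p of 0.0845. Limma on log2(FPKM + 1) gave 0.16 with an adjusted p of 0.108.

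Atf3 is a repressor or activator induced by many kinds of cell stress. Its levels were 3.33, 2.95 and 3.14 FPKM in control 1, 2 and 3 and 3.33, 2.92 and 2.92 FPKM in hydrogel 1, 2 and 3. The groups overlapped over nearly their whole range. The means were 3.14 ± 0.19 and 3.06 ± 0.24 FPKM (SD, n = 3). The log2 fold change was -0.012 (SE 0.14, 95% interval -0.31 to 0.29, edgeR adjusted p = 0.958). The interval holds changes from 0.806-fold to 1.22-fold, so a change of the size of Egr1 lies outside it and one of the size of Jun lies inside. Atf3 had the fewest reads of the 5 genes, with a counting error of 4.37% to 7.69% per library.

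Myc, the growth regulator that pairs with Max, stood at 15.3, 14.8 and 14.2 FPKM in control 1, 2 and 3. With hydrogel it stood at 17.9, 15.4 and 15.3 FPKM. Hydrogel 1 was the highest library, and the FPKM of hydrogel 3 lay under that of control 1. The means were 14.8 ± 0.57 and 16.2 ± 1.51 FPKM (SD, n = 3). The log2 fold change was 0.16 (SE 0.069, 95% interval 0.0082 to 0.30), with an unadjusted p of 0.0398 and an adjusted p of 0.0957 by edgeR. Without hydrogel 1 it was 0.079 (edgeR adjusted p = 0.408). After TMM scaling, the CPM of the groups did not overlap for Fos, Jun, Egr1 and Myc, 4 of the 5 genes, each with hydrogel higher. Of all tested genes, 47.3% had groups that did not overlap, and 23.8% had hydrogel higher.

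**Figure D2:**
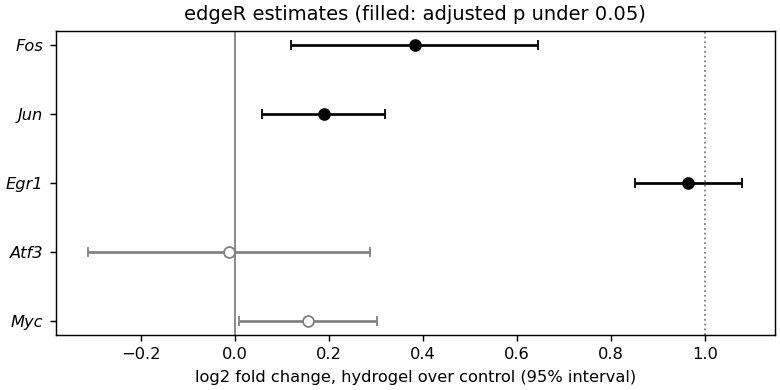
Log2 fold change of hydrogel over control (points) with its 95% interval (bars) by edgeR. Filled points have an adjusted p under 0.05, and the dotted line marks a 2-fold rise. The interval of Egr1, 0.85 to 1.08, lies above those of the other 4 genes, and that of Atf3 spans 0.

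The order of levels was the same in both groups. By mean FPKM, which is per length, Egr1 was highest, followed by Myc, Jun, Fos and Atf3. Egr1 ranked at the 78.7th to 80.6th percentile of tested genes in the control libraries and at the 89.2nd to 89.8th with hydrogel. Atf3 ranked lowest, at the 36.1st to 38.6th percentile over the 6 libraries. Myc and Jun did not differ beyond their spread, since the ratio of Jun to Myc FPKM ran from 0.828 to 1.04 in controls and from 0.910 to 1.00 with hydrogel. The other neighbours kept their order in each of the 6 libraries.

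Ratios of 2 genes within a library do not depend on how libraries are scaled. Each of the 4 ratios with Egr1 on top was higher in all hydrogel libraries than in all controls. Egr1 to Jun was 1.44 in controls (range 1.32 to 1.52) and 2.46 with hydrogel (range 2.43 to 2.50), as geometric means. Egr1 to Fos went from 3.27 to 4.82, Egr1 to Myc from 1.36 to 2.38 and Egr1 to Atf3 from 6.39 to 12.6. Egr1 therefore increased more than the other members in these libraries. Each of these differences had an exact two-sided permutation p of 0.1, the smallest that 3 against 3 libraries allow, and 0.167 after Benjamini-Hochberg adjustment over 10 pairs.

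Within AP-1, the ratio of Fos to Jun FPKM was 0.441 in controls and 0.511 with hydrogel, and the groups overlapped (exact permutation p = 0.4, adjusted 0.444). The difference of 0.22 in log2 was about as large as the change of Jun itself, so a shift in this balance was neither shown nor excluded with 3 libraries per group. The ratio of Jun to Myc was 0.942 and 0.968, also with overlap (exact permutation p = 0.8, adjusted 0.8). Jun to Atf3 (4.44 and 5.12) and Myc to Atf3 (4.71 and 5.29) had no overlap between the groups, each with the smallest possible p of 0.1 by the exact permutation test. In all, 6 of 10 pairs had no overlap, 4 of them with Egr1. Each of the 6 holds Egr1 or Atf3, so they are not separate results, and no share over pairs of other genes was computed.

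**Figure D3:**
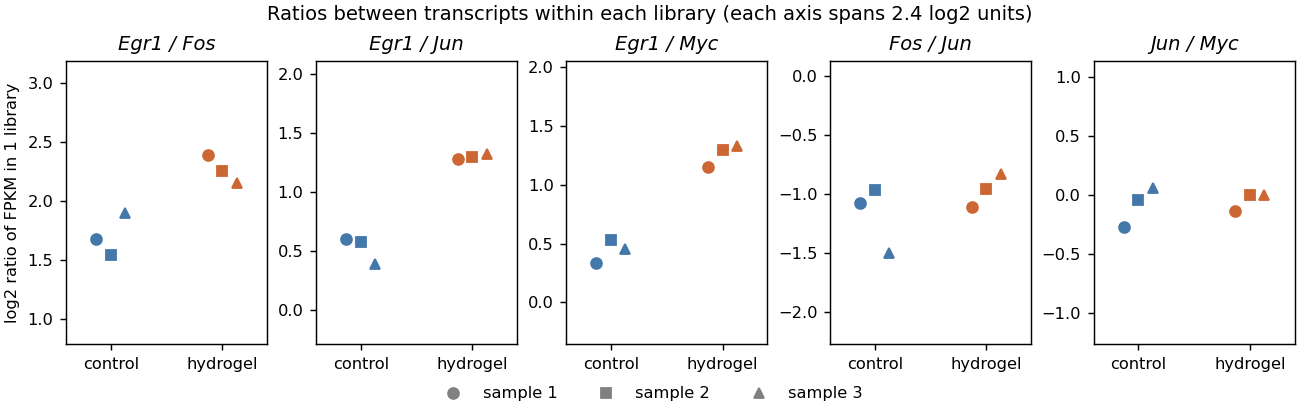
Log2 ratio of FPKM between 2 genes in the same library (vertical axis, the same span in each panel) for 3 control (blue) and 3 hydrogel (orange) libraries. The 3 ratios with Egr1 on top separate the groups, while Fos to Jun and Jun to Myc overlap.

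The spread between control libraries was wide for Fos. The coefficient of variation of Fos FPKM was 17.4% in controls, against a counting error of 3.02% to 5.58% per library, and 6.56% with hydrogel. For Jun it was 7.86% in controls and 3.74% with hydrogel, with counting errors of 1.28% to 2.22% over the 6 libraries. Set against tested genes within 2-fold of each gene's mean CPM, the control SD of log2 CPM was at the 94.3rd percentile for Fos, the 94.2nd for Jun and the 82.0th for Egr1. It was at the 27.5th for Myc and the 19.1st for Atf3. With hydrogel, the SD was at the 35.1st percentile for Fos, 33.2nd for Jun, 22.0th for Egr1, 26.6th for Atf3 and 80.2nd for Myc. Fos was lowest in control 3, while Jun was lowest in control 1 and highest in control 3, so the controls did not deviate alike for the AP-1 partners. The difference in spread between the groups was not tested.

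**Figure D4:**
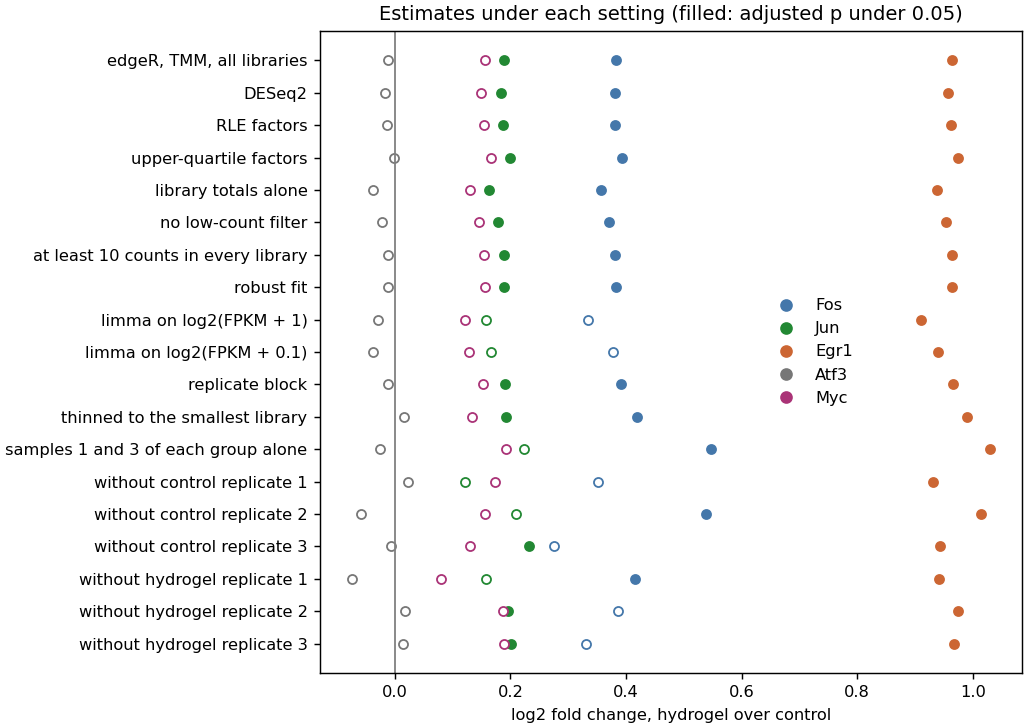
Log2 fold change of hydrogel over control (horizontal axis) for each gene (colours) under each setting (rows), with filled points for an adjusted p under 0.05. Egr1 stays between 0.91 and 1.03 and filled in all rows, Fos and Jun stay above 0 and are open in 6 rows each, and Atf3 lies on both sides of 0.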

How the data were processed

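Total RNA was sequenced from 6 libraries. The authors deposited raw counts per gene and FPKM per library, per the file headers. The FPKM values deposited by the authors equal the counts divided by library total and gene length. The builds GRCm38 and mm10, both of mouse, are named in the submitters' processing notes although the identifiers and labels are of rat, so the build behind the counts is unsettled and no coordinates of the counts are given. Aligner, counter and strandedness are not given in the sources used here.

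Counts were compared with edgeR 4.0.16 in R 4.3.3 over all genes kept by filterByExpr, with TMM scaling, group as the only term and a call at a Benjamini-Hochberg adjusted p under 0.05. Fold changes are hydrogel over control, and the standard error is the absolute log2 fold change over the root of F. The test was checked on simulated counts drawn independently for each library, which cannot show the effect of a shared culture or animal. Alternatives were DESeq2 1.42.0, limma 3.58.1 on FPKM (genes of at least 0.1 mean FPKM, pseudocounts of 1 and 0.1), scalings, filters, a robust fit, thinning, a replicate block and leaving out libraries. Ratios were planned for all pairs of 6 genes and run for the 10 pairs of the 5 measured.

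For each member, the neighbour sought was the tested gene of at least 5 CPM with the most alike log2 CPM (prior count of 2). The plan took members in listed order, limited to 2 identifiers per direction. The named genes are the members and the neighbours of Egr1 and Myc. Only neighbours called by edgeR were named, a condition that the plan did not state. Related-gene and cell type lists were not analysed here, since the reference table pairs no identifiers with symbols. The members and lists were chosen with earlier results of these data known.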

Additional observations from a re-analysis of the deposited data

How the results depend on the processing

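Egr1 kept its direction and call in all 18 alternatives, with log2 fold changes from 0.91 to 1.03. Fos and Jun kept their direction in all 18 and their call in 12 each. Limma on log2(FPKM + 1) and on log2(FPKM + 0.1) gave 0.33 and 0.38 for Fos and 0.16 and 0.17 for Jun, not called, and so called 1 member in place of 3. Over all genes these fits called 4327 and 4363 in place of 5079. The cause was not tested. Samples 1 and 3 of each group alone gave 0.22 for Jun, not called, with fewer libraries by construction. Leaving out 1 library gave 0.28 to 0.54 for Fos, 0.12 to 0.23 for Jun, -0.074 to 0.023 for Atf3 and 1 to 2 members called (1 without control 1), while calls over all genes fell to between 3977 and 4695. Atf3, never called, also changed sign to 0.017 when libraries were thinned to the smallest total. Myc was not called in any of the 18, with adjusted p from 0.0702 to 0.408. At an adjusted p under 0.01, 1 member was called (Egr1). With a fold above 2 or below 0.5 as well, edgeR called 0 members (0 also at an unadjusted p under 0.05) and 843 of all genes, fewer by construction of the limit. With a replicate block for the sample number, the same 3 members were called, and 5246 of all genes in place of 5079. The members' log2 fold changes were 0.39 for Fos, 0.19 for Jun and 0.96 for Egr1, and Atf3 and Myc stayed uncalled. The sample numbers were not taken as pairs, since deviations of same-numbered libraries correlated at 0.022, 0.051 and 0.013. Each control nevertheless correlated best with its own number. No scaling shifted the median over all genes by more than 0.026 in log2. Low counts limit Atf3 most, at 169 counts in hydrogel 3.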

Other observations

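For each member, the tested gene with the most similar log2 CPM over the 6 libraries was sought among 10244 genes at 5 CPM or more. With 6 libraries in 2 groups, high correlations are common: 749 genes reached a Pearson r of 0.95 with Egr1, 80 with Myc, 75 with Jun, 26 with Fos and 9 with Atf3. The closest to Egr1 was ENSRNOG00000009948 (r = 0.9998), at a mean of 34.2 CPM in controls and 48.5 CPM with hydrogel. The closest to Myc was ENSRNOG00000005908 (r = 0.994), at 58.1 and 65.5 CPM. The closest genes to Fos, Jun and Atf3 had r of 0.989, 0.999 and 0.987. These were not called by edgeR (adjusted p = 0.0517, 0.266 and 0.928) and are not named. The named neighbours of Egr1 and Myc were called (edgeR adjusted p = 4.76e-06 and 0.0437). A gene chosen this way follows the member's difference between the groups, so its own edgeR test is not read as a separate result. The 6 libraries fall into 2 treatments and differ in depth, and every gene is read from the same 6 libraries.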
